A study of Rattus norvegicus with 8 samples.

Results

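Neurofilaments and microtubules are the long polymers that fill an axon, and the genes described here encode their subunits. The set was defined by name, as the neurofilament chains Nefl, Nefm and Nefh, the related neuronal intermediate filament genes Ina and Prph, and the tubulins Tubb3, Tubb2a, Tubb2b, Tuba1a and Tuba4a, 10 genes in all. The rule lists names and uses no measured value, but the genes were chosen with earlier results of these data known. Of the 10 genes, 8 were found by their symbol among the 26405 Ensembl rat genes of each deposited table. Tuba1a was found through its Entrez identifier, which RefSeq pairs with that symbol, in a row that carries the symbol LOC100910937. Nefm had no row under its symbol or its identifier and was not analysed here, which leaves 9 genes, 4 of intermediate filaments and 5 of tubulins.

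The study grew neurons of the embryonic rat hippocampus for 10 to 14 days in microfluidic chambers, in which axons extend into a compartment apart from the cell bodies. For 24 h the axonal compartment alone received either soluble oligomers of Abeta(1-42), the amyloid peptide that accumulates in Alzheimer's disease, or vehicle. RNA was sequenced from each compartment, giving 4 groups of 2 samples, namely axons exposed to Abeta, axons given vehicle, soma of cultures with Abeta on their axons, and soma of cultures given vehicle. All groups share the same cells and chambers, and the somatic groups received no peptide on the cell bodies. The labels do not state separate cultures for the duplicates, so a p-value here reflects only how far these samples differ, which may be technical.

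Neurofilaments are built from a light (Nefl), a medium (Nefm) and a heavy (Nefh) chain together with alpha-internexin (Ina) in central neurons or peripherin (Prph) mainly in peripheral neurons, and their content is known to set the calibre of myelinated axons. Alpha-internexin appears early in neuronal development, and the heavy chain appears late. Microtubules are polymers of alpha and beta tubulin dimers and serve as the tracks of axonal transport. Tubb3 is the neuron-specific beta isotype widely used as a neuronal marker, Tubb2a and Tubb2b are beta isotypes abundant in brain, Tuba1a is the main alpha isotype of developing neurons, and Tuba4a is an alpha isotype linked to amyotrophic lateral sclerosis in humans. Transcripts of several cytoskeletal genes are known to be carried into axons.

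The deposited tables compare the treatments within each compartment but do not name the numerator of the fold change. Signs are therefore given as deposited, and the treatment that is higher where the log2 fold change is above 0 is called the positive side and the other the negative side. Which side is Abeta is not known, so the values cannot tell whether the peptide raised or lowered a transcript. The tables hold a mean normalized count over 4 libraries, and whole reads per library were worked out from the 15 significant digits of these means. A normalized count is a read count divided by the size factor of its library, a scaling for depth. Recovered libraries are numbered by size factor within a side and could not be matched to sample titles, so their values are a description and enter no test of treatment.

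Reads in recovered genes numbered 425420 and 422370 in the positive-side axonal libraries, against 293288 and 231854 among the negative-side ones. In soma they numbered 2763526 and 269137 on the positive side, against 3740650 and 296340 on the negative side, so each side joined a deep library (number 1) to a shallow one (number 2). Genes used as markers of neurons had reads in the axonal table for 8 of 8 genes, with summed normalized counts of 595 and 739 in the positive-side libraries and 377 and 665 among the negative-side ones. Markers of other cells were also present in axons. Astrocyte markers (7 of 7 with a row had reads) summed to 2013 and 2488 normalized counts on the positive side, against 371 and 732 on the negative side, and fibroblast markers (6 of 6) to 351 and 765 against 131 and 147. Of the fibroblast markers Col1a1 and Col1a2 were called on the positive side, the other 4 had log2 fold changes below 0 in the authors' deposited table, and the median of the 6 was -0.31. Microglia markers (6 of 6) summed to 55.9 and 23.5 against 84.0 and 140.5, and oligodendrocyte lineage markers (8 of 8) to 83.1 and 79.8 against 76.7 and 37.8. Endothelial markers (4 of 4) summed to 23.4 and 13.3 against 43.1 and 27.0, and cycling cell markers (3 of 3 with a row) to 15.9 and 5.48 against 29.4 and 37.8. No marker with a row in these lists was at 0 in axons.

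No neurofilament or peripherin gene was called between treatments in the axonal table, and all 4 were read in small numbers there. The authors' deposited table gives an adjusted p in axons to 1321 genes, whose lowest mean normalized count is 44.8, and the 4 genes are not among them. None reached an unadjusted p under 0.05 (DESeq2) either, against 4.45% of the 23879 axonal genes with a p-value. Of the 5 tubulin genes, the 4 with an adjusted p were not called at an adjusted p under 0.05 (DESeq2, Benjamini-Hochberg), with 0 of 5 also at an unadjusted p under 0.05, where 23.0% of the 1321 genes were called.

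Nefl (ENSRNOG00000013658), the light chain on which the filament is built, had 25.7 and 14.9 normalized counts among the positive-side axonal libraries, against 31.5 and 49.97 among the negative-side ones, from 34 and 19 against 30 and 37 reads. Both negative-side libraries were above both positive-side libraries, by a narrow gap between 31.5 and 25.7. Its log2 fold change in the authors' deposited table was -0.88 (SE 0.69, unadjusted p = 0.201 by DESeq2), with no adjusted p given. Nefh (ENSRNOG00000008716), the heavy chain with the long phosphorylated tail, had 2.27 and 0 normalized counts on the positive side, against 12.6 and 4.05 on the negative side, from 18 reads in all. The negative side was again higher without overlap, and 12 of the 18 reads lay in a single library. The authors' deposited table gives Nefh a log2 fold change of -1.53 (SE 1.06, unadjusted p = 0.147 by DESeq2), the lowest p of the 9 genes in axons.

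Ina stood on the other side as deposited, though not relative to well expressed somatic genes, described further on. Alpha-internexin transcripts (ENSRNOG00000020248) had 37.0 and 37.6 normalized counts among the positive-side axonal libraries and 29.4 and 33.8 among the negative-side ones. The sides did not overlap, yet the gap was small, and the authors' deposited table gives a log2 fold change of 0.22 with an SE of 0.64, larger than the change itself. Prph (ENSRNOG00000015643) had 3.78 and 2.35 normalized counts on the positive side, against 1.05 and 2.70 on the negative side, from 11 reads, and the sides overlapped. Thus 3 of the 4 intermediate filament genes had sides apart, Nefl and Nefh with the negative side higher and Ina with the positive side higher, where sides were apart for 49.5% of the 7851 axonal genes with recovered reads and a mean normalized count of 10 or more (30.6% with the positive and 18.9% with the negative side higher). Nefh and Prph, with means of 4.73 and 2.47, lie below that filter.

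**Figure D1:**
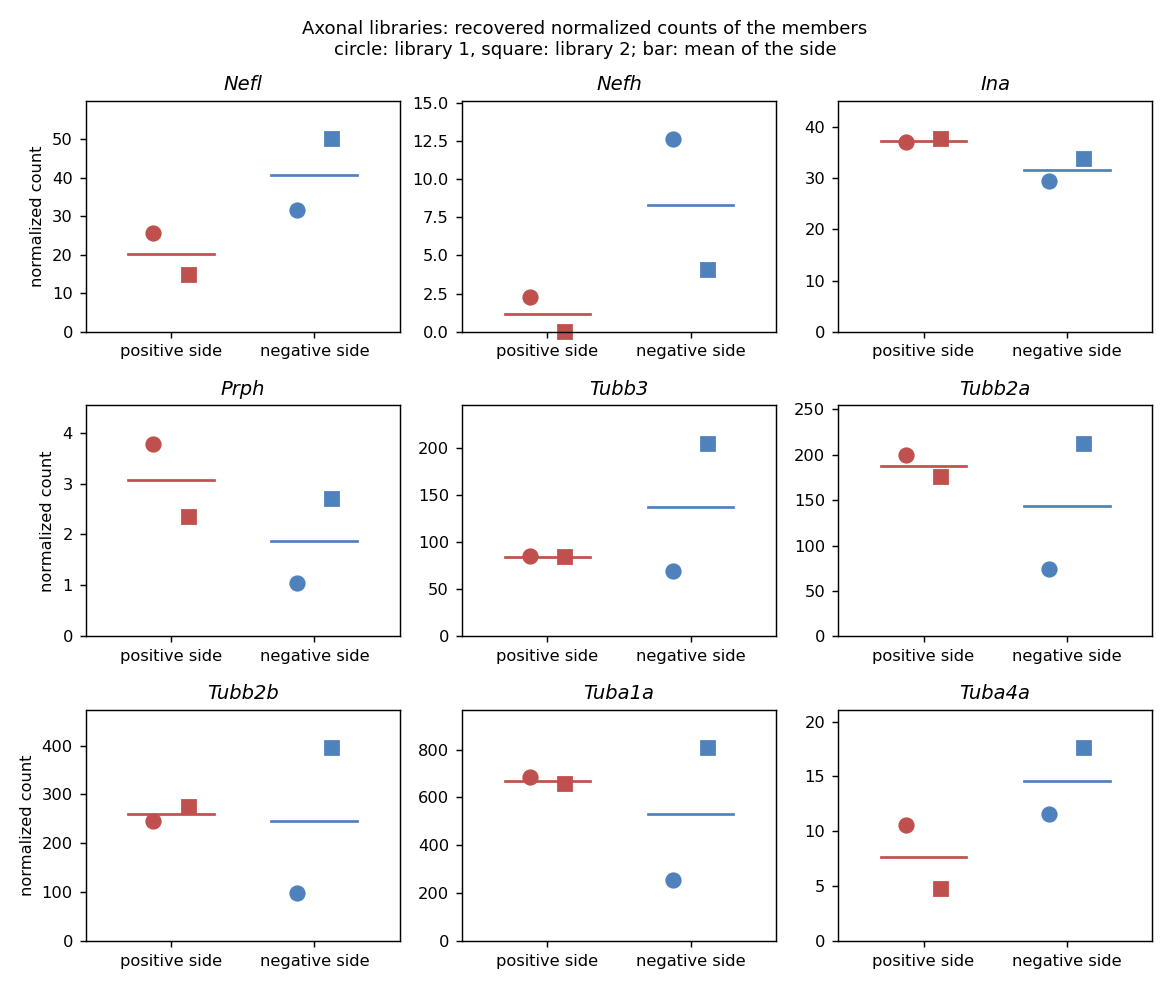
Normalized counts (vertical axes, each from 0) of the 9 genes in the 4 recovered axonal libraries, with the positive side left of the negative side; circles are library 1, squares library 2 and bars the mean of a side. Nefl, Nefh and Tuba4a lie higher on the negative side without overlap, whereas for Tubb3, Tubb2a, Tubb2b and Tuba1a the 2 negative-side libraries lie on either side of the positive-side pair.

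The ratio of Nefl to Ina reads within a library does not depend on the size factors. Nefl made up 41.0% and 28.4% of the summed Nefl and Ina reads in the positive-side axonal libraries (Wilson 95% intervals 31.0 to 51.7% and 19.0 to 40.1%), against 51.7% and 59.7% among the negative-side ones (39.2 to 64.1% and 47.3 to 71.0%). The intervals cover counting error only, and those of both positive-side libraries overlap that of negative-side library 1, while that of positive-side library 1 also overlaps that of negative-side library 2. In soma the same share was 86.1% and 48.9% on the positive side, against 84.0% and 57.4% on the negative side, so the deep libraries were at about the same high share and the shallow ones at a lower share.

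The 4 abundant tubulins had high read numbers in axons and did not separate the sides. Their 300-base promoter windows, 250 bases before to 50 bases after the start, are shown because the 4 genes shared one profile over the axonal libraries, described after them. Sequences are from RefSeq on assembly GRCr8, which may differ from the build behind the tables, and run 5′ to 3′ on the gene's strand. Capitals mark the TATA box as TATAAA, the CCAAT box as its 5 letters, and the GC box as GGGCGG, searched on both strands, and no match overlapped another here. The windows are chr19:68365437-68365736 (plus strand) for Tubb3, chr17:31001936-31002235 (plus) for Tubb2a, chr17:30952836-30953135 (plus) for Tubb2b and chr7:131995770-131996069 (minus) for Tuba1a.
Tubb3: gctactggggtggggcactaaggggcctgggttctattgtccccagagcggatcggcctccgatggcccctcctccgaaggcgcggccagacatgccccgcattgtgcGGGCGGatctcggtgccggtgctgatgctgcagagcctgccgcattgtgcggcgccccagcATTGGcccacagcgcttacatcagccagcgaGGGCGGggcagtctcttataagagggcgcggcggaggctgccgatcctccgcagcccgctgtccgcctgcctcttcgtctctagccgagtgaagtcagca
Tubb2a: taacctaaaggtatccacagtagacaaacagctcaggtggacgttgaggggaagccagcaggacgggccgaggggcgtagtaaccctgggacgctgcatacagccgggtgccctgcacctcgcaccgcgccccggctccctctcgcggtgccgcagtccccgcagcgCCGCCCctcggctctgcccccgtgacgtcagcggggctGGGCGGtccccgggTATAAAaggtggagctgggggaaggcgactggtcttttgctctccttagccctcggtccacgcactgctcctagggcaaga
Tubb2b: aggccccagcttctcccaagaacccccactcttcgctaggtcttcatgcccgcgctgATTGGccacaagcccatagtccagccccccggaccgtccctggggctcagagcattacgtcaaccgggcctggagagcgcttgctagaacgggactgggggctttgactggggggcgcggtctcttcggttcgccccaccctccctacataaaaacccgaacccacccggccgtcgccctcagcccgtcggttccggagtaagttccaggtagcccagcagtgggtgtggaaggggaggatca
Tuba1a: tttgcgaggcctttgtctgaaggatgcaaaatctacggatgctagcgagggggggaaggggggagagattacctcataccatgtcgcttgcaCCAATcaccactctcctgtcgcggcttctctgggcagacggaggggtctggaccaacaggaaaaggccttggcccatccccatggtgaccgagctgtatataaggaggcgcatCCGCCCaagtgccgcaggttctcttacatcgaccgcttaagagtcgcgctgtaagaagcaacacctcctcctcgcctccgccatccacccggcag
Of the 33469 rat promoters of that length in the table, 14.2% hold TATAAA, 37.5% CCAAT and 33.1% GGGCGG. Of the 4 printed, Tubb2a alone holds TATAAA, starting 31 bases before the start. CCAAT is in the other 3, in reverse form in Tubb3 and Tubb2b, and GGGCGG is in Tubb3, Tubb2a and Tuba1a. Over the 7 genes of the set with an entry, TATAAA was in 2 (Prph and Tubb2a), CCAAT in 3 and GGGCGG in 6. A match is a description of letters, and no match says only that these letters are absent from this window.

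Tubb3 (ENSRNOG00000017209) had 84.7 and 84.5 normalized counts among the positive-side axonal libraries, against 69.3 and 204 among the negative-side ones. The positive-side pair was nearly equal, while the negative-side libraries differed 2.94-fold from each other and lay on either side of that pair. Its log2 fold change in the authors' deposited table was -0.64 (SE 0.55, adjusted p = 0.452 by DESeq2). Tubb2a (ENSRNOG00000017558) had 200.3 and 175 normalized counts on the positive side, against 74.6 and 212 on the negative side. Tubb2b (ENSRNOG00000017445) had 246 and 274 against 98.7 and 394 normalized counts, and Tuba1a (ENSRNOG00000004559) 683 and 655 against 255 and 805. For these 3 genes, as for Tubb3, negative-side library 1 was the lowest of the 4 libraries and negative-side library 2 the highest. The authors' deposited table gives log2 fold changes of 0.37 (SE 0.51, adjusted p = 0.662 by DESeq2) for Tubb2a, 0.08 (SE 0.54, adjusted p = 0.933) for Tubb2b and 0.32 (SE 0.48, adjusted p = 0.686) for Tuba1a.

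The scarcest of the 5 tubulins behaved otherwise. Tuba4a (ENSRNOG00000003597) had 10.6 and 4.70 normalized counts among the positive-side axonal libraries and 11.6 and 17.6 among the negative-side ones, from 44 reads. The negative side was higher without overlap, and the authors' deposited table gives a log2 fold change of -0.71 (SE 0.90, unadjusted p = 0.433 by DESeq2). Tuba4a was the 1 tubulin of 5 whose sides were apart, beside 49.5% of axonal genes with recovered reads and a mean of at least 10.

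Negative-side library 2 was above library 1 by 2.84-fold for Tubb2a, 2.94-fold for Tubb3, 3.15-fold for Tuba1a and 3.99-fold for Tubb2b. A ratio of at least 2 in that direction was found in 18.9% of the 285 axonal genes with a mean normalized count from 100 to 1000, the range in which reads were recovered, and the reverse, library 1 at least 2-fold above library 2, in 4.21%. The positive-side libraries were at least 2-fold apart in 16.5% of the 285, and for none of the 4 tubulins. Among the 211 of these genes whose somatic mean was above 100, as it was for all 4 tubulins, negative-side library 2 was at least 2-fold above library 1 in 25.6%. Among the scarcer genes the same ratio was 1.59 for Nefl, 1.15 for Ina, 1.52 for Tuba4a, 0.321 for Nefh and 2.57 for Prph, which had 1 and 2 reads in these libraries. The summed normalized counts of the 5 tubulins were 1225 and 1193 on the positive side, against 509 and 1633 on the negative side, and those of the neuron markers in the same 2 negative-side libraries were 377 and 665. In bulk RNA, less axonal material of a kind and less RNA per axon cannot be told apart, and the part of either in this spread was not tested.

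The direction of the 4 abundant tubulins in axons changed when a single library was left out. From recovered counts with a pseudocount of 1, the log2 ratio of the positive to the negative side was -0.69 for Tubb3, 0.39 for Tubb2a, 0.08 for Tubb2b and 0.34 for Tuba1a over all 4 libraries. Without negative-side library 1 the ratios were -1.26, -0.17, -0.60 and -0.27 in that order of genes. Without negative-side library 2 they were 0.28, 1.32, 1.39 and 1.39. The omission of negative-side library 1 was added as a displayed value after its tubulin counts had been seen. The directions of Nefl, Nefh, Ina, Prph and Tuba4a did not change when any 1 of the 4 axonal libraries was left out. For Nefl, Nefh, Ina and Tuba4a this had to be so, since their sides did not overlap. For the 4 abundant tubulins the change had to occur, since negative-side library 1 was the lowest and negative-side library 2 the highest. Except for Prph, these directions restate the order of the libraries.

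The choice of scaling also bears on direction. The 2683 genes with a somatic mean of 100 or more had a median log2 fold change of 0.44 in the axonal table. As deposited, 5 of the 9 genes were above 0 and 4 below in axons, whereas relative to that median all 9 were below 0. The axonal median was -0.13 over all genes with reads and 0.15 over those with a mean of at least 10. Most axonal genes of either kind thus also lay below 0.44. Nefh, Prph and Tuba4a, with somatic means of 14.0, 0.555 and 44.6, are not among the 2683 genes. Nefl then stood at -1.32, Nefh at -1.97, Tuba4a at -1.14 and Tubb3 at -1.08 on the log2 scale. Ina stood at -0.22, Prph at -0.10, Tubb2a at -0.07, Tubb2b at -0.36 and Tuba1a at -0.12, each with the sign opposite to its deposited value. None of the 4 genes with an adjusted p was called after this centring, with a lowest adjusted p of 0.179 from a normal test of the deposited values with Benjamini-Hochberg adjustment. With libraries scaled instead to their reads in genes present in both tables, Tubb2b alone of the 9 changed sign, to -0.0067.

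**Figure D2:**
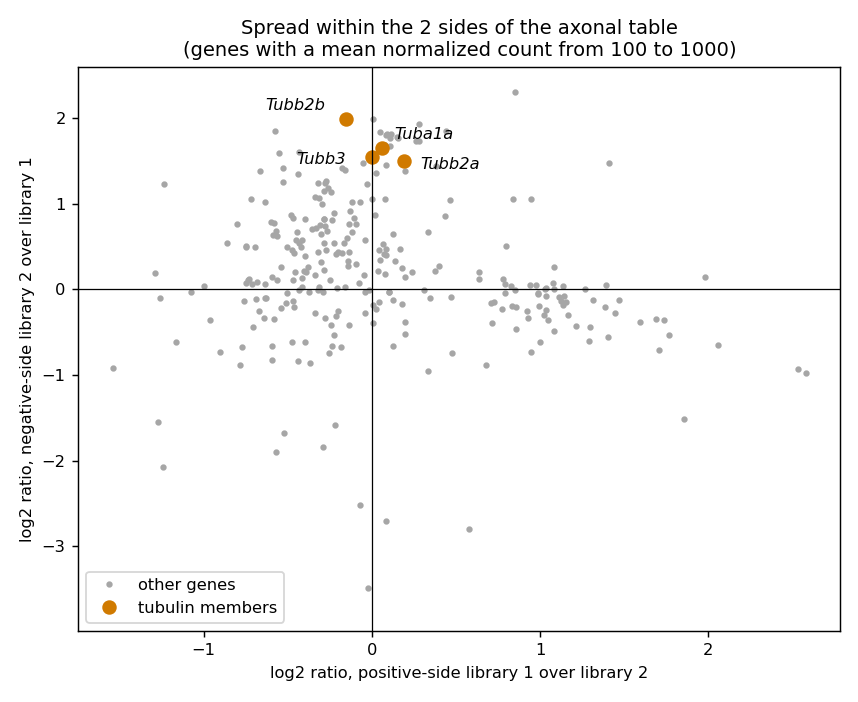
Each point is an axonal gene with a mean normalized count from 100 to 1000, placed by the log2 ratio of the positive-side libraries (library 1 over library 2, horizontal) and of the negative-side libraries (library 2 over library 1, vertical). Tubb3, Tubb2a, Tubb2b and Tuba1a lie near 0 on the horizontal axis and between 2.84-fold and 3.99-fold on the vertical one.

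The makeup of the tubulin pool was compared next as shares of the summed reads of the 5 tubulins in a library, a measure in which depth and size factors cancel. It was chosen after the values had been seen. Tubb3 held 6.91% and 7.08% of tubulin reads in the positive-side axonal libraries (Wilson 95% intervals 5.77 to 8.25% and 5.90 to 8.48%), against 13.6% and 12.5% among the negative-side ones (10.8 to 16.9% and 10.7 to 14.5%). The sides did not overlap, nor did the intervals, which cover counting error only and not the spread between libraries. The 2 negative-side libraries had close shares although their tubulin reads numbered 485 and 1209. The mean share was 6.996% on the positive side, against 13.0% on the negative side, a difference of -6.05 percentage points. The exact two-sided permutation test over the 2 against 2 libraries gave p = 0.333, which is the smallest p this design allows, so it cannot reach 0.05.

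The other shares differed by fewer percentage points. Tuba1a held 55.8% and 54.9% of tubulin reads on the positive side of the axonal table, against 50.1% and 49.3% on the negative side, without overlap. Tubb2a held 16.3% and 14.7% on the positive side, against 14.6% and 13.0% on the negative side, again apart by a narrow gap. Tubb2b overlapped, with shares from 19.4% to 24.2% over the 4 libraries. Tuba4a held 0.864% and 0.393% on the positive side, against 2.27% and 1.08% on the negative side, from 14 and 6 against 11 and 13 reads. With 5 shares that must sum to 100%, these values are not independent of that of Tubb3.

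Somatic shares were ordered by depth for all 5 tubulins, and the sides overlapped. Tuba1a held 62.0% in the deep and 48.1% in the shallow library of the positive side, against 62.8% in the deep and 47.2% in the shallow library of the negative side. Tubb2a held 9.38% and 15.9% against 8.84% and 16.2%, and Tubb2b 18.4% and 25.9% against 18.8% and 25.7%, deep library first. Tubb3 differed least by depth in percentage points among the 4 abundant tubulins, at 9.69% and 9.86% on the positive side, against 8.96% and 10.6% on the negative side, and its somatic share lay between the 2 axonal sides in all 4 libraries.

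**Figure D3:**
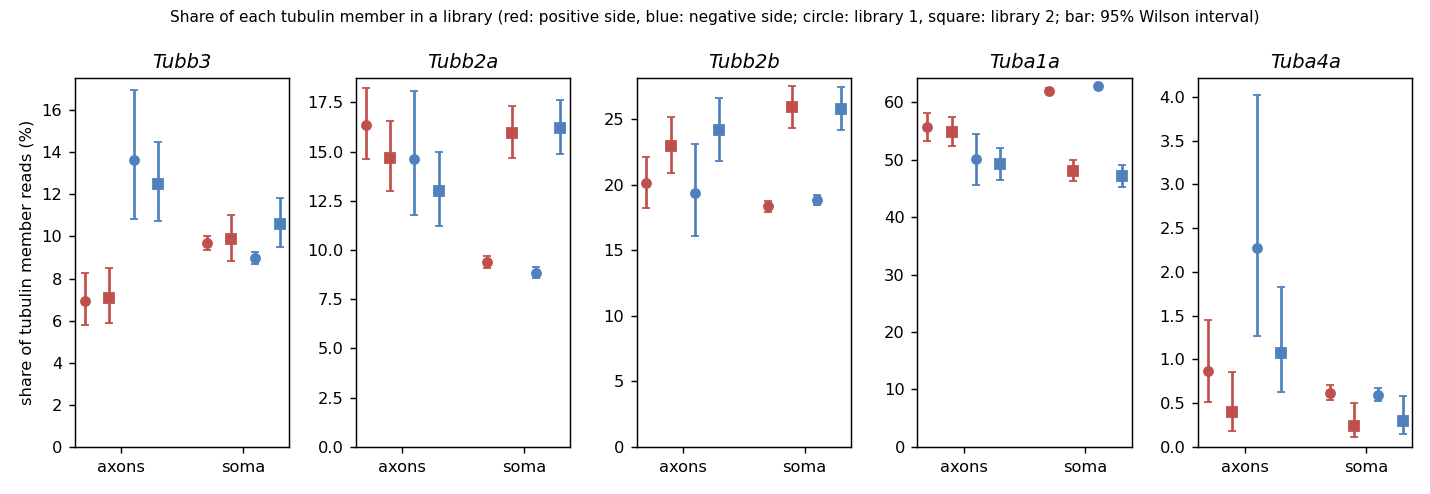
Share of each tubulin (percent of the reads of the 5 tubulins, vertical axis) in every recovered axonal and somatic library, with Wilson 95% intervals that cover counting error only. Tubb3 shares of 6.91% and 7.08% on the positive axonal side lie below those of 13.6% and 12.5% on the negative axonal side, and the somatic shares lie between 8.96% and 10.6%.

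In soma no gene of the set was called between treatments, and the authors' deposited table holds 0 calls among all 18995 genes with reads (0% called; 2 genes, 0.0105%, at an unadjusted p under 0.05, DESeq2). All 9 genes had an adjusted p of 1.00 (DESeq2), and their log2 fold changes ran from -0.06 for Nefl to 0.20 for Ina. The lowest unadjusted p was 0.717 (DESeq2). With SEs of 0.30 to 0.57, a p that misses the threshold does not show that the treatments acted alike. The SE of 0.30 is that of Prph, which had 7 somatic reads, so it is not a sign of precision.

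Nefl had 363 and 303 normalized counts among the positive-side somatic libraries, against 397 and 303 among the negative-side ones, deep library first. Nefh had 15.5 and 13.5 against 14.7 and 12.5, from 46 and 4 against 55 and 4 reads. Both genes were higher in the deep library of each side, and the sides overlapped. Prph had 5 reads in the deep library of the positive side and 2 in that of the negative side, with 0 in both shallow ones. Ina was the opposite case, with 58.6 and 317 normalized counts on the positive side, against 75.6 and 225 on the negative side. The shallow libraries were thus 4.04-fold above the deep ones in the mean for this gene, a ratio of at least 2 that 12.2% of the 2574 somatic genes with recovered reads and a mean of at least 100 also had, with the reverse in 14.7%.

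Tubb3 had 1069.6 and 956 normalized counts among the positive-side somatic libraries and 936 and 904 among the negative-side ones. Both positive-side libraries were above both negative-side ones, beside 15.7% of somatic genes with recovered reads and a mean of at least 10 whose sides were apart (7.42% with the positive and 8.26% with the negative side higher), and the log2 fold change in the authors' deposited table was 0.12 (SE 0.43). Tuba1a had 6839 and 4660.3 normalized counts on the positive side, against 6562 and 4023 on the negative side. Tubb2a had 1035 and 1546 against 924 and 1383, and Tubb2b 2028 and 2512 against 1968 and 2196. Tuba1a was higher in the deep libraries, Tubb2a and Tubb2b in the shallow ones. Tuba4a had 67.7 and 23.6 normalized counts on the positive side, against 62.0 and 25.0 on the negative side, 2.67-fold higher in the deep libraries.

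Within the deep pair the log2 ratio of the positive to the negative side was -0.13 for Nefl, -0.36 for Ina, 0.19 for Tubb3, 0.16 for Tubb2a, 0.04 for Tubb2b and 0.06 for Tuba1a. Within the shallow pair it was near 0 for Nefl, at -0.0017, 0.49 for Ina, 0.08 for Tubb3, 0.16 for Tubb2a, 0.19 for Tubb2b and 0.21 for Tuba1a. The 4 abundant tubulins were thus above 0 in both pairs, as was Nefh (0.07 deep, 0.10 shallow). Nefh had 4 reads in each shallow library, so its shallow ratio comes from the size factors alone. Ina changed sign between the pairs, and so did Tuba4a, at 0.13 in the deep and -0.08 in the shallow pair. The shallow value of Tuba4a rests on 7 reads on the positive side and 8 on the negative side. Prph stood at 0.81 in the deep pair and had no reads in the shallow one. Deep and shallow values did not overlap for 8 of the 9 genes, all but Tubb3, so for these genes the spread within a side was larger than the difference between sides.

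**Figure D4:**
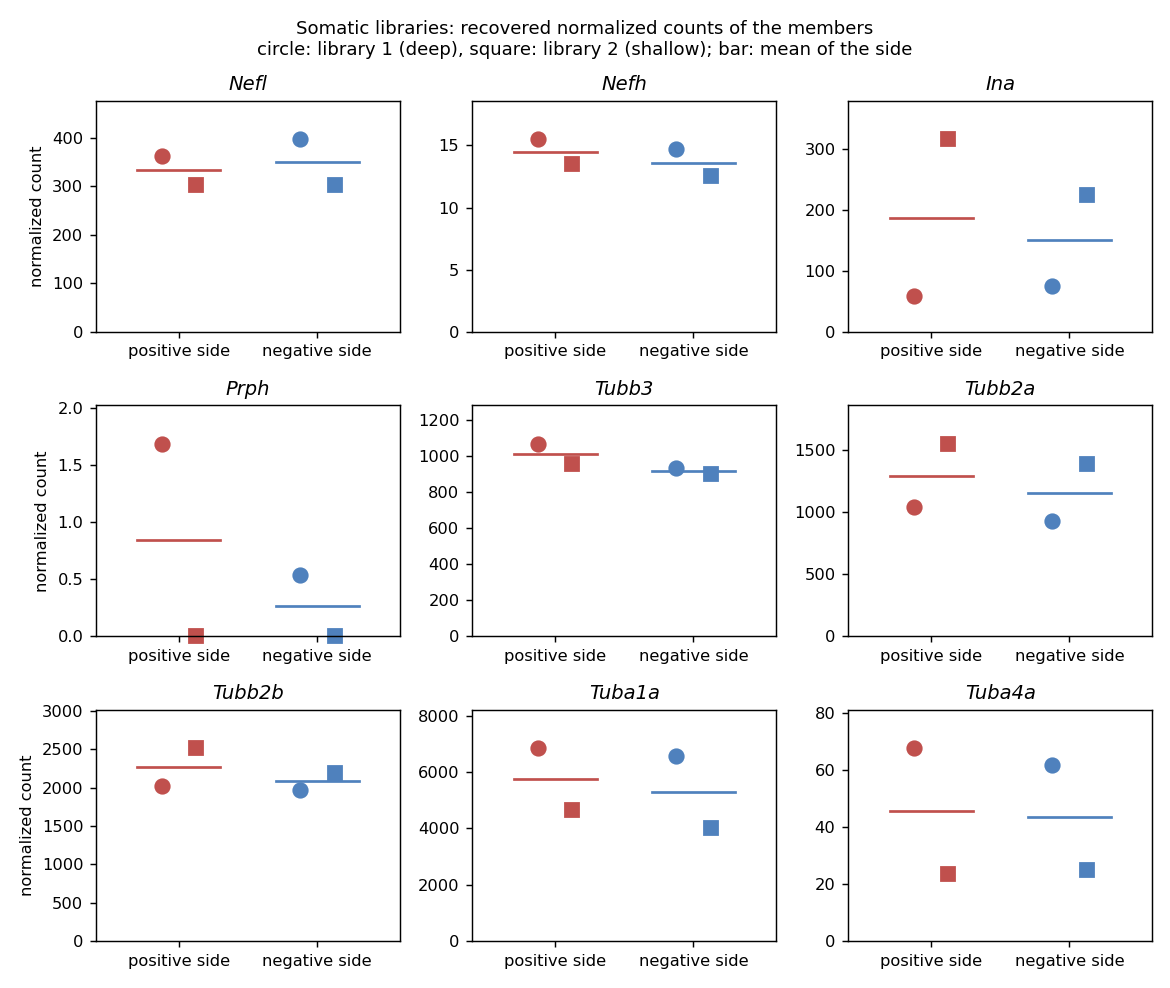
Normalized counts (vertical axes, each from 0) of the 9 genes in the 4 recovered somatic libraries, with the positive side left of the negative side; circles are the deep library 1, squares the shallow library 2 and bars the mean of a side. Circles and squares are apart for every gene except Tubb3, and Ina is 4.04-fold higher in the shallow libraries.

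Whether the compartments responded differently was tested as the axonal minus the somatic log2 fold change, with the 2 deposited SEs combined. The deposited fold changes were reproduced by a model with a normal prior, which draws values of scarce genes toward 0. The prior differs between the tables, so the differences and their intervals mix unequal shrinkage. Prph stood at 0.33 in axons and 0.11 in soma as deposited, but at 0.50 and 0.54 from recovered counts with a pseudocount of 1. No gene of the set was called (0 of 9, also 0 of 9 at an unadjusted p under 0.05), against 0.0326% of the 18406 genes with a value in both tables and 2.60% at that unadjusted p. The Nefh difference was -1.58 with a 95% interval of -3.94 to 0.77, and the adjusted p was 1.00 for all 9 genes in this normal test with Benjamini-Hochberg adjustment. For Nefl the difference was -0.82 (95% interval -2.43 to 0.79) and for Tubb3 -0.75 (-2.12 to 0.61). For Tuba1a it was 0.22 (-1.08 to 1.53) and for Ina 0.01 (-1.66 to 1.69). The intervals reach beyond a 2-fold difference in at least 1 direction for each of the 5 genes whose interval is given here.

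**Figure D5:**
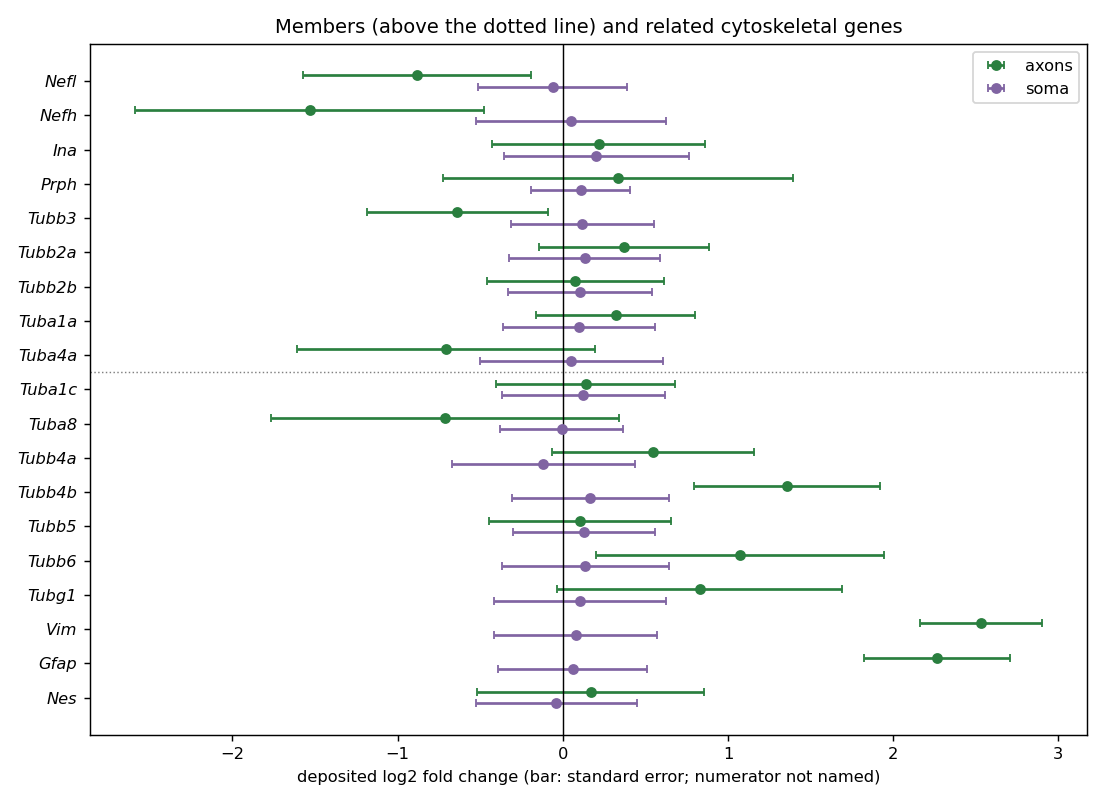
Log2 fold changes of the authors' deposited tables with their standard errors (horizontal axis, sign as deposited) for the 9 genes and a selection of related genes in axons and soma. The neurofilament and tubulin genes have errors of 0.48 to 1.06 in axons, and none is called, whereas Vim and Gfap lie at 2.53 and 2.27 in axons.

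The rank of a gene among the genes of its own table gives its place in each compartment without comparing levels between the tables. Tubb3 was above 98.2% of the axonal genes with reads and above 99.4% of the somatic ones by mean normalized count, which is not corrected for gene length. The same percentages were 99.1% in axons and 99.8% in soma for Tuba1a, 98.7% and 99.5% for Tubb2a, and 98.9% and 99.7% for Tubb2b. Nefl stood above 90.1% of axonal and 97.4% of somatic genes, and Ina above 91.7% and 92.7%. Nefh (45.9% and 46.6%), Tuba4a (69.1% and 70.1%) and Prph (30.4% and 15.7%) ranked lower. No test was made of these ranks, since the tables were normalized separately.

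Per 100 tubulin reads, the axonal libraries held 5.61 and 4.59 reads of Nefl, Nefh, Ina and Prph together on the positive side, against 14.6 and 5.54 on the negative side. The value of 14.6 belongs to the negative-side library 1, in which the tubulin sum was lowest. In soma the figures were 3.97 and 6.53 on the positive side, against 4.67 and 6.34 on the negative side, higher in the shallow libraries. Filament and tubulin sums thus did not keep a fixed ratio among the axonal libraries.

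Genes that make, modify or carry these proteins were then read from lists. Among the other tubulin isotypes, 14 of 15 had a row, 3 had an adjusted p in axons, and 0 were called, beside 23.0% of the 1321 axonal genes with an adjusted p. Their median log2 fold change was 0.12 (0.55 for those with a mean of at least 10), beside -0.13 over all axonal genes with reads and 0.15 over those with a mean of at least 10. Tubb4b, a beta isotype of cilia and many tissues, had 98.3 and 75.1 normalized counts on the positive side, against 31.5 and 31.1 on the negative side, well apart. Its log2 fold change in the authors' deposited table was 1.36 (SE 0.56, adjusted p = 0.0652 by DESeq2), just short of the threshold, so it was not called. Tubb5, a broadly expressed beta isotype, had 187 and 138 on the positive side, against 65.1 and 236 on the negative side, the same low and high negative-side libraries as the abundant tubulins, with a log2 fold change of 0.11 in the authors' deposited table (SE 0.55).

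Tuba3a, an alpha isotype known from testis, had the lowest log2 fold change of all 23879 axonal genes with reads, and it was singled out after its values had been seen. It had 0 and 0 reads in the positive-side axonal libraries, against 20 and 9 among the negative-side ones, and 0 reads in soma. Against a floor of 3 reads in each positive-side library it was at least 7.19-fold lower on the positive side. The authors' deposited table gives a log2 fold change of -3.67 (SE 1.03, unadjusted p = 0.000364 by DESeq2) and no adjusted p. Reads in the 5473 axonal genes that have none in soma made up 2.80% and 1.25% of the recovered reads on the positive side of the axonal table, against 5.59% and 4.62% on the negative side, and their part in this value was not tested. Tuba3a shares its Entrez identifier with Tuba3b, so the reads of these near-identical genes may have been split between them and the value is uncertain. Tuba3b had 3 and 3 reads in the positive-side axonal libraries, against 15 and 0 among the negative-side ones, and its sides overlapped. The authors' deposited table gives Tuba3b a log2 fold change of -0.97 (SE 1.06, unadjusted p = 0.357 by DESeq2).

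Chaperonin subunits and tubulin cofactors, which fold the tubulin dimer, gave 0 calls in axons among 23 identifiers of 21 genes, of which 3 had an adjusted p, with a median log2 fold change of 0.39. In the authors' deposited table the chaperonin subunits Cct5 and Cct7 stood at 0.40 and 0.18 on the log2 scale. Tubulin modifying enzymes, 16 of 19 genes with a row, gave 0 calls and a median of -0.35, and only 1 of their 17 identifiers had an adjusted p. Kinases, linkers and motors of neurofilaments, 18 of 20 genes with a row, of which 7 had an adjusted p, gave 0 calls and a median of 0.26. Among them Kif5c, a heavy chain of the transport motor kinesin-1, had 0.90 in the authors' deposited table (SE 0.45, DESeq2 adjusted p = 0.151) and Kif5a, a kinesin-1 heavy chain of neurons, 0.17 (SE 0.43, DESeq2 adjusted p = 0.814). Of the 1321 axonal genes with an adjusted p 23.0% were called, and list genes without one could not be called. The medians of these lists lay on both sides of that of all genes, and in soma each of the lists had 0 calls.

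Of 8 other intermediate filament genes, 2 had an adjusted p in axons, and both were called, on the positive side (8.78% of the 1321 genes were called to that side and 14.2% to the negative side). Vim, the vimentin of glia and mesenchymal cells, had, per the authors' deposited table, a log2 fold change of 2.53 (SE 0.37, DESeq2 adjusted p = 2.81e-09), and Gfap, the filament of astrocytes, one of 2.27 (SE 0.44, DESeq2 adjusted p = 2.91e-05). The other 6 genes ran from -0.95 for Lmnb1, a nuclear lamin, to 0.62 for Lmna, another lamin, in the authors' deposited table, and the median of the 8 was 0.25. The difference of Vim and Gfap from the neuronal genes was not tested. Of the 7 astrocyte markers, 4 were called on the positive side, Gfap included. Aqp4 and Fgfr3 were also higher on that side but were not called. Slc1a2 went the other way, with a log2 fold change of -0.82 in the authors' deposited table and the negative side higher without overlap. Gfap alone gave 1228 and 1530 of the summed astrocyte counts of 2013 and 2488 on the positive side. On the negative side it gave 158 and 375 of 371 and 732, so these sums are not independent of Gfap. The part of astrocyte and fibroblast RNA in the values of the neuronal genes was not tested. 

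Of the 281 other genes with an axonal mean of at least 100 and recovered reads, the 3 whose profile over the 4 axonal libraries was nearest to the mean profile of the 4 intermediate filament genes were Golga1 (a Golgi protein), Camk2b (a subunit of a calcium-dependent kinase abundant in neurons) and Klf3 (a transcription factor), at root mean square differences of 0.068, 0.14 and 0.15 on the log2 scale. Golga1 had 156 and 87.6 normalized counts on the positive side, against 191 and 196 on the negative side. The nearest to the tubulin profile was Gabbr1, a subunit of the GABA-B receptor, at 0.027, with 145 and 128 against 80.9 and 229.6, so it shared the low and the high negative-side library. The next 2 carry no gene name here. With 4 libraries, nearness describes these libraries only.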

How the data were processed

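RNA of the axonal and cell body compartments of microfluidic cultures was sequenced (TruSeq libraries, MiSeq), per the labels' protocols. The submitters' processing notes name DESeq2, SAMtools, TopHat2 and Trim Galore without versions. The build, the annotation and the counter were not given in the sources used here. Per the file headers, the deposited tables (1 per compartment) hold a mean normalized count, a signal in the form of counts divided by size factors, the authors' log2 fold change with its standard error, a deposited Wald score, and the authors' p-value with its adjusted value. They hold no column per library, so no test of counts was run. Other columns of per-sample values numbered 0. A call is the authors' adjusted p under 0.05.

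Reads per library were recovered from the deposited means with Python 3.11.15 and numpy 2.4.6. A mean is a sum of whole reads, each multiplied by a unit fixed for its library, and single-read genes give the units. Exactly 1 solution was found for 100% of means under 1000 in both tables, while decoys had one in 0% below 500 and in 2.56% (axons) and 2.74% (soma) from 500 to 1000. A negative binomial model with a normal prior on the log2 fold change was run on the recovered reads. It returned the deposited log2 fold change within 1e-05 for 100% of the axonal genes checked and for 96.2% of somatic genes of mean 10 to 100. For 3.8% of the somatic ones no dispersion was found. For larger somatic means of the listed genes, the same model left exactly 1 candidate for each (52 candidates before it for Tuba1a). The recovery was tested on simulated data. Recovered reads per library ranged over 231854 to 425420 in axons and 269137 to 3740650 in soma.

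Differences between compartments used a normal test with Benjamini-Hochberg adjustment over 18406 genes. Members and gene lists were chosen with earlier results of these data known. Named genes are the members, list genes called in either table, the highest and lowest list gene of axonal mean at least 50, and the 3 genes of nearest profile per family; Tuba3a and the shares were chosen after values were seen. Wilson intervals are at 95%. Adjustment, filter, threshold, centring, pseudocount, scaling and leave-one-out alternatives were run.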

Additional observations from a re-analysis of the deposited data

How the results depend on the processing

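The number of genes of the set called stayed at 0 in axons, in soma and in the difference between compartments when p-values were adjusted over every gene or over genes with a mean of at least 10, when the threshold was 0.1 or 0.01, and after centring (lowest adjusted p of the set in axons with centring 0.179). Of 81 alternative values of the 9 axonal fold changes 70 moved by less than the spread between libraries of a side and 11 by more, and of 99 somatic ones 95 and 4. This yardstick is wider for genes with more spread, so these counts do not show stability. Without negative-side library 1, Tuba1a went from 0.32 to -0.27, Tubb2a from 0.37 to -0.17 and Tubb2b from 0.08 to -0.60. Each of these moves was within the spread although the sign changed. Leaving out 1 library changed the sign of 4 axonal genes, the abundant tubulins, and of 8 somatic genes. In axons this restates the order of the libraries given above, and the cause of the spread was not tested. Centring turned the sign of the 5 axonal values that were above 0, since each was smaller than the median of 0.44 that was subtracted. As a share of all measured tubulin isotypes, an alternative added after seeing the data, Tubb3 differed by -4.06 percentage points between the sides in axons, because the denominator is larger; without each library in turn the difference over the 5 tubulins ran from -6.61 to -5.49. Ranks among genes with a symbol moved by up to 7.44 percentage points. No paired analysis was possible because the tables hold no column per sample. Leaving out libraries from the counts of calls was not run, since it needs the authors' fit. Depth limits Nefh and Prph most, with 18 and 11 axonal reads and 7 somatic reads of Prph.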
